A study of Bos taurus with 20 samples.

Results

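The genes described here are 9 chemokine, cytokine and receptor genes: CCL2, CXCL8, CXCL12, ACKR3, CSF1, IL34, IL33, IL1R1 and IL1RAP. They were taken by symbol from a table of raw read counts for 33063 named bovine genes, and all 9 were found in it. Their counts were compared across 20 clonal populations of mesenchymal stem cells (MSCs), each grown from 1 sorted cell. The sorted cells came from MSC cultures, passaged beforehand, that were derived from adipose tissue of crossbred Holstein Friesian x Aberdeen Angus calves. Of these clones, 10 were adipogenic (A), which took up a lipid dye after adipogenic differentiation, and 10 were non-adipogenic (N), which did not. The labels name the dye as Oil Red O, whereas the study's methods describe the choice of clones by BODIPY stain. Both kinds were expanded in medium with 10% fetal bovine serum and 5 ng/ml basic fibroblast growth factor, and RNA was taken from clones that had not been differentiated. Animals 17 and 20 gave 1 A and 1 N clone each, and animals 22 and 23 gave 4 A and 4 N clones each. Clones are named below by animal and clone number, such as 22-18. Each library is 1 clone and clones of an animal share their donor, so p-values measure the spread between clones of these 4 animals.

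Chemokines are small secreted proteins that guide moving cells through receptors on the cell surface, and some receptors of the atypical kind bind them without classical signalling and remove them. CSF1 and IL34 are the ligands of CSF1R, the receptor that keeps macrophages alive. The interleukin-1 family signals through paired receptor chains, MYD88 and IRAK kinases to NF-kB, which switches on many inflammatory genes. In adipose tissue, stromal progenitors are a known source of chemokines and of CSF1.

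Libraries held 14615493 to 43111345 counts on named genes. All 7 MSC markers, among them NT5E, THY1 and ENG, had counts in every clone. Levels are given as CPM, a gene's read counts scaled to a common library size. The MSC markers were not at a like level in all clones. The lowest N values were 0.508 CPM for NT5E (9 counts), 0.395 CPM for THY1 (7 counts) and 19.1 CPM for ENG, all in 22-5. The N medians of these genes were 83.2, 50.1 and 347 CPM. Clone 22-5 also had the lowest sum of the 7 MSC markers, 2788.5 CPM against an N median of 3659.6 CPM. It was the lowest of all clones for CCL2, CXCL12, ACKR3 and IL1R1 as well. Leukocyte markers were low: LYZ and MS4A1 had 0 counts in all clones, PTPRC (CD45) had 0 to 7 counts, and the summed level of the 11 markers was 1.24 to 12.0 CPM in N (median 3.28) and 3.01 to 12.2 CPM in A (median 8.26). The highest N sum was that of 20-15, and the other N clones had at most 4.202 CPM, so the sum was higher in most A clones. Of them CD68 was tested and was higher in A, with a log2 fold change of 1.06 (edgeR, adjusted p = 0.0157). The 8 endothelial markers summed to 1.19 to 41.7 CPM in N and 5.25 to 70.1 CPM in A, and CLDN5 was at 0 in all clones. Mesothelial markers stood apart in 22-5 and 22-9, both N, where the 10 markers summed to 10396 and 7293 CPM against at most 1217 CPM in the other clones, and MSLN, the 1 marker called of the 8 tested, was lower in A (log2 fold change -1.97, edgeR, adjusted p = 0.0393). The N clone 22-18 had 6.29 CPM of PPARG, the master regulator of adipogenesis, inside the A range of 4.34 to 19.8 CPM, whereas the other N clones had at most 1.198 CPM. The 8 proliferation markers summed to 129 to 557 CPM in N and 37.6 to 359 CPM in A, and 3 of them (MKI67, TOP2A and CDK1) were lower in A. The part of these marker differences in the results below was not tested, other than by leaving out the clones that stood apart.

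CCL2 and CSF1 were higher in A clones, and the other genes of the set did not pass the test. Of the 9 genes, 8 passed the filter on low counts and IL33 did not. The test was edgeR's quasi-likelihood test with the animal as a block and Benjamini-Hochberg adjustment over all 12900 genes tested. Of the 8 genes, 2 were called at an adjusted p under 0.05, both higher in A and 0 lower, and 3 had an unadjusted p under 0.05. Across all genes tested 20.6% were called, 10.3% higher in A and 10.3% lower in A, so the count of called genes in the set was close to that share. The median log2 fold change of the 8 genes was 0.04.

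**Figure D1:**
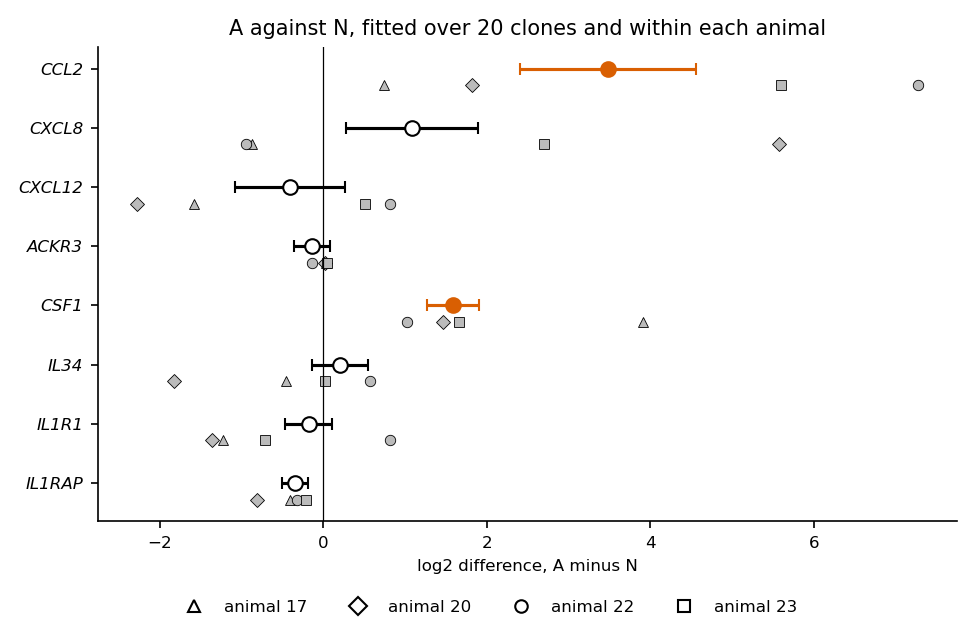
Differences between A and N clones on a log2 scale (x axis) for the 8 tested genes (y axis). Circles with bars are the fitted log2 fold change over 20 clones with its standard error, filled where the adjusted p was under 0.05 (CCL2 and CSF1), and grey symbols below are the difference of mean log2 CPM within each animal. The animal symbols lie on the A side for all 4 animals in CCL2 and CSF1 and on both sides of 0 for CXCL8, CXCL12, ACKR3, IL34 and IL1R1. For CCL2 and CXCL12 the animal 22 symbols rest on low values among the N clones, and the fit in that animal alone gave 2.88 and -0.44.

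CCL2, also known as MCP-1, attracts monocytes through the receptor CCR2. In N clones it ranged from 0 to 227 CPM with a median of 1.56, and in A clones from 19.5 to 804 CPM with a median of 159. The means were 49.3 ± 83.0 CPM in N and 217.5 ± 218.7 CPM in A (SD, n = 10 each). The N clones fell far apart: 17-23, 20-15 and 22-18 had 159, 227 and 95.8 CPM, and the other 7 had at most 6.36 CPM, below every A clone. In 22-5 no read was counted, which allows up to 0.168 CPM at 3 counts, an upper limit that covers counting error only. At the other end, 3 A clones lay above all N clones.

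The log2 fold change of CCL2 was 3.49 with a standard error of 1.07 (edgeR, adjusted p = 0.0307), and A was higher within 4 of 4 animals. How many of all genes were higher in 4 of 4 animals is not given here. Animals 17 and 20 gave differences of mean log2 CPM of 0.74 and 1.82. Fitted alone, animal 23 gave a log2 fold change of 5.30 (edgeR, adjusted p = 0.0238) and animal 22 gave 2.88, which was not called (edgeR, adjusted p = 0.421). The differences of mean log2 CPM in these animals, 5.60 and 7.27, stand in the other order, and that of animal 22 rests on low N values, with 22-5 at 0 counts. The fitted effects of the animals differed by 2.41 on the log2 scale (edgeR, adjusted p = 0.770). In bulk RNA, fewer cells with CCL2 and less CCL2 RNA in each cell cannot be told apart. Without 22-18, the N clone with PPARG in the A range, the log2 fold change was 5.64 (edgeR, adjusted p = 0.00265), and without 22-5 and 22-9 together it was 3.13 (edgeR, adjusted p = 0.0403). The call was lost without the animal block (2.14, edgeR, adjusted p = 0.195), without animal 23 (2.37, edgeR, adjusted p = 0.361) and without each N clone of animal 23 in turn, at adjusted p of 0.0556 for 23-10, 0.0572 for 23-22, 0.0510 for 23-23 and 0.0501 for 23-74, with log2 fold changes of 3.26, 3.28, 3.54 and 3.21. The chemokine genes beside CCL2 in the RefSeq order of assembly ARS-UCD2.0 had few counts: CCL11 reached 51 counts in an A clone, CCL8 had at most 2 and CCL1 at most 9. CCR2 had 0 counts in all 20 clones.

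**Figure D2:**
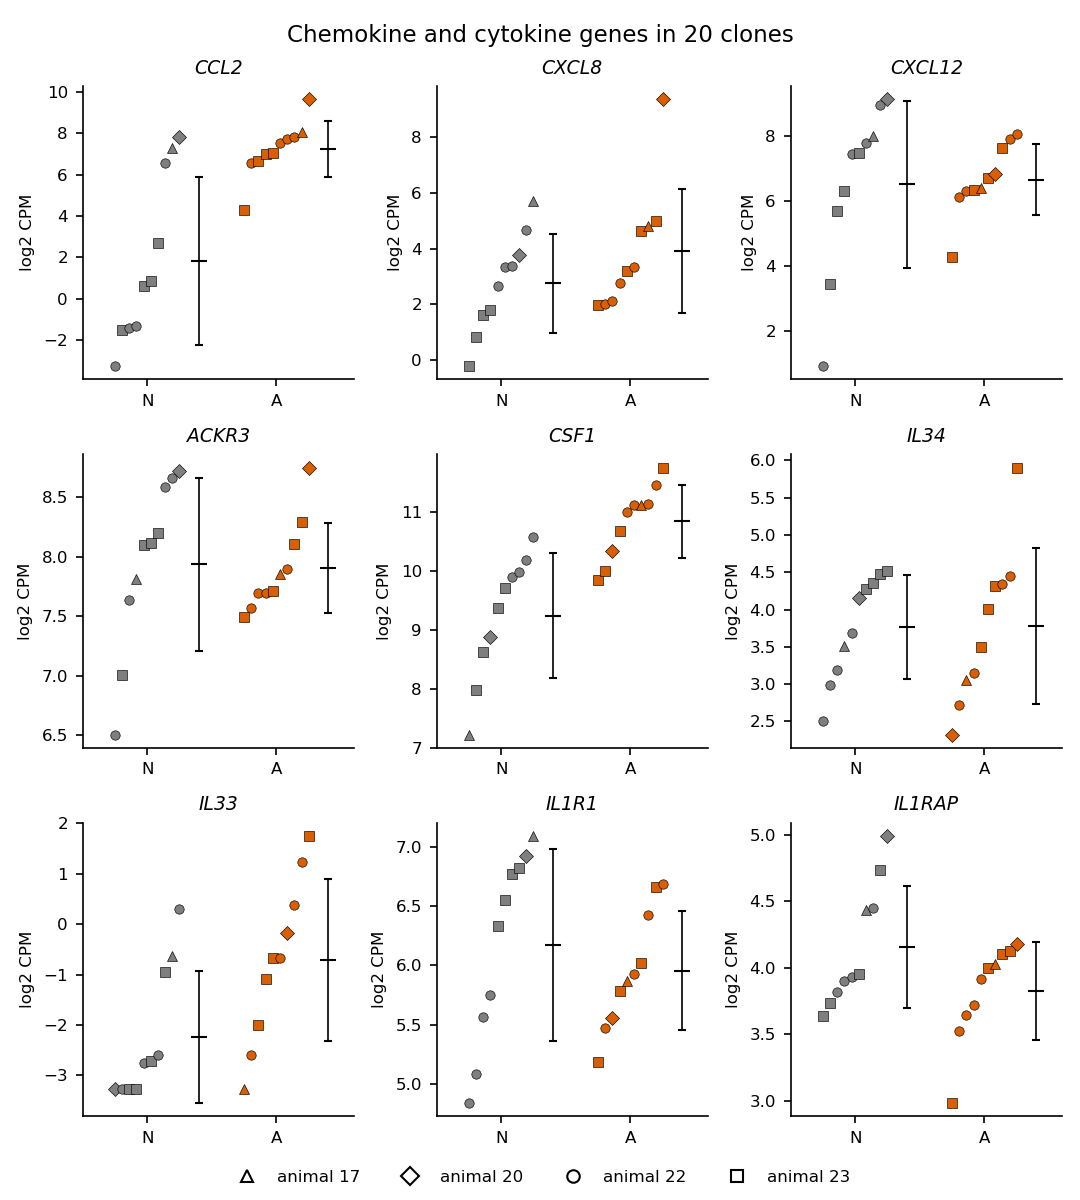
Log2 CPM (y axis, prior count 2) of the 9 genes in each of the 20 clones, N in grey and A in orange, with the symbol giving the animal. The bar to the right of each group is the mean and SD over 10 clones. CCL2 shows 7 N clones below all A clones and 3 N clones within the A range, CSF1 shows 7 A clones above all N clones, and the groups overlap for the other genes.

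CXCL8, the neutrophil attractant interleukin-8, differed widely between clones, and its difference between the conditions did not pass the test. It ranged from 0.758 to 51.8 CPM in N (median 8.09) and from 3.86 to 656 CPM in A (median 9.46). The highest value came from 1 clone, 20-106, and the A mean of 77.8 ± 203.3 CPM (SD, n = 10) fell to 13.6 CPM without it, against an N mean of 12.6 ± 15.6 CPM. The log2 fold change was 1.09 with a standard error of 0.81 (edgeR, adjusted p = 0.344), and 0.65 without 20-106 (edgeR, adjusted p = 0.552).

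The direction of CXCL8 was not the same in all animals. In animal 23 the 4 A clones, at 3.86 to 31.4 CPM, lay above the 4 N clones, at 0.758 to 3.36 CPM. In animal 22 the A clones had 3.96 to 9.95 CPM and the N clones 6.21 to 25.3 CPM, so the ranges overlapped with A mostly below. How many of all genes separate within an animal, as CXCL8 did in animal 23, is not given here. The log2 fold change in animal 23 exceeded that in animal 22 by 4.04 with a standard error of 0.92. This interaction had an unadjusted p of 0.000584 in edgeR but did not pass the adjustment over genes (edgeR, adjusted p = 0.290). DESeq2's Wald test called the same term.

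Other CXC chemokine genes lie close to CXCL8 in the RefSeq order, among them CXCL5, CXCL2, CXCL3, PF4 and PPBP. Of these CXCL5, CXCL2 and CXCL3 were tested, as was the related GRO1, and none passed. PF4 and PPBP were below the filter on low counts. In the fit without that filter PF4 was called higher in A (log2 fold change 2.72, edgeR, adjusted p = 0.0293) and PPBP was not (edgeR, adjusted p = 0.0830). The A mean of PF4, 7.45 CPM, fell to 0.61 CPM without its highest clone, 17-57. CXCL5 had 436 ± 267 CPM in N and 850 ± 785 CPM in A (SD, n = 10 each, log2 fold change 0.85, edgeR, adjusted p = 0.149). CXCL2 had 29.6 ± 30.4 and 68.6 ± 69.3 CPM (log2 fold change 1.43, edgeR, adjusted p = 0.0848), and CXCL3 had 38.0 ± 31.8 and 23.4 ± 28.2 CPM (log2 fold change -0.90, edgeR, adjusted p = 0.0793). GRO1, the symbol used for CXCL1, differed by 0.12 on the log2 scale (edgeR, adjusted p = 0.896). CXCL2, CXCL3 and GRO1 are close paralogs, and since only uniquely mapped reads were counted their values are uncertain. Clone 20-106 was the highest of all clones for CXCL8, CXCL5, CXCL2 and GRO1, at 656, 2880.3, 256 and 131 CPM. Over the 70 tested genes of the set and its pathways, 20-106 was the highest clone for 22 genes (31.4%), against 8.62% of all genes tested, which is given as a description.

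**Figure D3:**
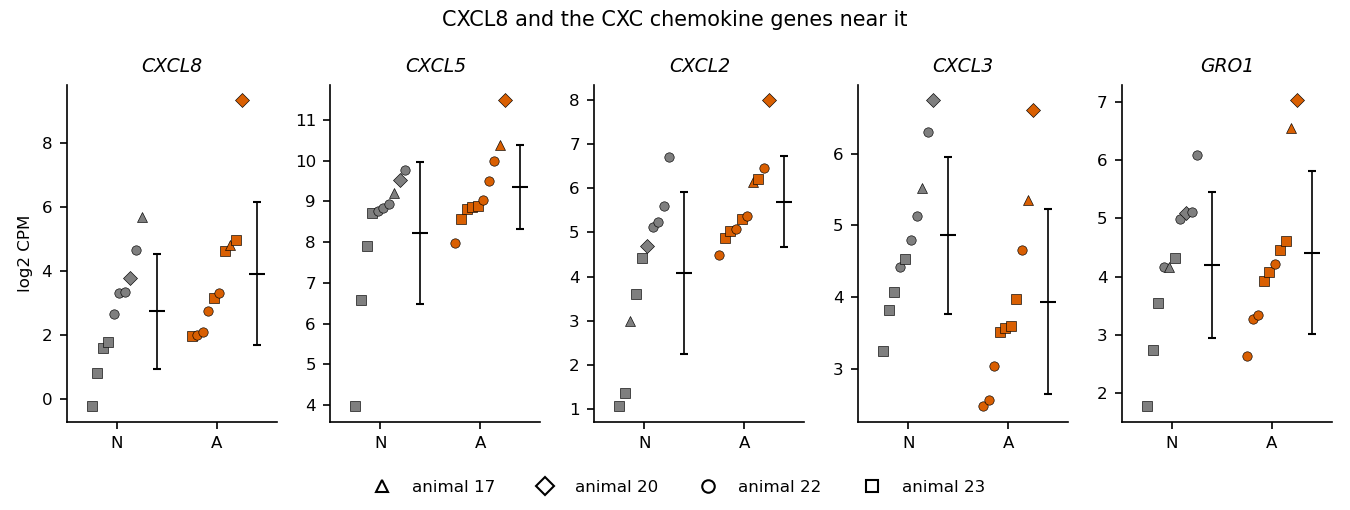
Log2 CPM (y axis, prior count 2) of CXCL8 and of CXCL5, CXCL2, CXCL3 and GRO1 in the 20 clones, N in grey and A in orange, with symbols by animal and the mean and SD at the right of each group. The A clone of animal 20 (orange diamond) is the highest A clone in every panel, and the groups overlap in each.

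CXCL12 (SDF-1) retains stem and immune cells through CXCR4, and ACKR3 is the atypical receptor that binds and clears it. CXCL12 ranged from 1.81 to 554 CPM in N (median 175) and from 19.4 to 263 CPM in A (median 94.8). The N clones 22-5 and 23-10, at 1.81 and 10.7 CPM, lay below all A clones and 2 N clones lay above all of them. The means of 200.6 ± 190.0 CPM in N and 124.9 ± 79.9 CPM in A (SD, n = 10 each) gave a log2 fold change of -0.41 with a standard error of 0.67 (edgeR, adjusted p = 0.693). In animals 17 and 20 the differences of mean log2 CPM were -1.58 and -2.28. In animal 23 alone the fitted log2 fold change was 0.35 (edgeR, adjusted p = 0.822). In animal 22 the sign depended on the scale: the fit in that animal alone gave -0.44 (edgeR, adjusted p = 0.852), and the difference of mean log2 CPM was 0.82, with 22-5 at 1.81 CPM among its N clones.

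ACKR3 varied less than CXCL12 and overlapped almost entirely between the conditions. It had 90.6 to 421 CPM in N (median 276.0) and 180 to 430 CPM in A (median 220.2). Its log2 fold change was -0.13 with a standard error of 0.22 (edgeR, adjusted p = 0.694). CXCR4, the signalling receptor of CXCL12, had 0 to 6 counts per clone and was not tested.

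ACKR4, an atypical receptor that clears CCL19, CCL21 and CCL25, was the only other chemokine receptor gene tested of 22, and it fell in A. It had 11.2 ± 18.4 CPM in N and 0.36 ± 0.49 CPM in A (SD, n = 10 each), with a log2 fold change of -4.14 and a standard error of 0.96 (edgeR, adjusted p = 0.00838). The ranges overlapped, at 0.0565 to 57.6 CPM in N and 0 to 1.47 CPM in A. It remained called without each single clone, but not without animal 23 (log2 fold change -3.49, edgeR, adjusted p = 0.179) or in animal 22 alone (-2.23, edgeR, adjusted p = 0.395).

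Of the 34 other chemokine ligand genes, 7 were tested and 0 were called by edgeR, beside 20.6% of all genes tested. Their median log2 fold change was 0.22. DESeq2 called 2 of these 7 and limma-voom 0. A further 5 had 0 counts in all clones. With every gene that had a count in the fit, 8 of 29 were called, all higher in A. By that fit 6.89% of all genes with a count were called higher in A. Of the 8, CXCL13, CXCL11 and CCL17 had 0 counts in N and entered that fit through A clones alone. The count is therefore a description and not a test of the list. Named here after their values were seen, CCL5 (RANTES, a T-cell and monocyte attractant) had 0 to 10 counts in N and 7 to 343 in A, with 9 A clones above all N clones, and an unfiltered log2 fold change of 3.96 (edgeR, adjusted p = 0.00249). CXCL13, which attracts B cells, had 0 counts in all N clones and 482 counts over 7 of 10 A clones, at least 176-fold higher at a floor of 3 counts over the N group. The A clones 22-11 and 22-16, both of animal 22, held 243 and 168 of these counts, and 17-57, 20-106 and 23-108 had 0. Without 22-11 the bound was 103-fold, which still includes the counts of 22-16. CXCL11, an interferon-inducible T-cell attractant, had 0 counts in N and 121 over 8 A clones, at least 44.2-fold higher at the same floor. The clones 22-11, 22-16 and 22-27 of animal 22 held 40, 38 and 25 of them, and without 22-11 the bound was 34.9-fold. The fold bounds of CXCL13 and CXCL11 pool the clones of each group. They cover counting error only, not the spread between clones or animals. These chemokine genes lay below the filter and the counts behind them are small.

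CSF1, which drives the survival and growth of macrophages, was higher in A. It ranged from 149 to 1533 CPM in N (median 752) and from 923 to 3466 CPM in A (median 2147). The levels of 7 A clones exceeded those of the whole N group, and 6 N clones were under the whole A group. The means were 743 ± 437 CPM in N and 1999.7 ± 796.6 CPM in A (SD, n = 10 each), and the log2 fold change was 1.59 with a standard error of 0.32 (edgeR, adjusted p = 0.00378).

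A was higher in 4 of 4 animals for CSF1, with log2 differences of 3.91 and 1.47 for animals 17 and 20 and of 1.02 and 1.66 for animals 22 and 23. In animal 22 the A clones (2066 to 2827 CPM) and the N clones (952 to 1533 CPM) did not overlap, and the same held in animal 23 (923 to 3466 against 251 to 837 CPM). How many of all genes separate so within an animal, or are higher in 4 of 4 animals, is not given here, so both are descriptions. CSF1 was called without any single clone. It was not called without animal 23 (1.49, edgeR, adjusted p = 0.0934), in animal 22 alone (0.9996, edgeR, adjusted p = 0.0621) or in animal 23 alone (1.72, edgeR, adjusted p = 0.0888).

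IL34, the other ligand of CSF1R, did not pass the test. It had 14.9 ± 6.33 CPM in N and 17.7 ± 15.9 CPM in A (SD, n = 10 each), within 5.60 to 22.8 CPM in N and 4.90 to 59.6 CPM in A. The highest value was from the A clone 23-14. The fitted difference was 0.21 on the log2 scale with a standard error of 0.34 (edgeR, adjusted p = 0.686), and it was -0.09 without 23-14.

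CSF1R itself was present at trace level, with 0 to 10 counts in N clones and 7 to 35 counts in A clones. In CPM all 10 A clones, at 0.476 to 2.38, lay above all 10 N clones, at 0 to 0.255, and such a separation with A higher was found in 0.225% of the genes tested and in 0.192% of all genes with a count. CSF1R did not pass the filter on low counts. An unfiltered fit gave 3.13 on the log2 scale with a standard error of 0.58 (edgeR, adjusted p = 0.00268). CSF1R also marks macrophages. Of the leukocyte markers, CD68 was higher in A as given above, and CD14, below the filter, had 0 to 107 counts in N and 1 to 135 in A. The unfiltered log2 fold change of CD14 was 2.75 (edgeR, adjusted p = 0.0417), though its highest level was in the N clone 20-15 (6.57 against at most 4.88 CPM in A). The other leukocyte markers were not called in that fit or had no counts. AIF1, CD163 and FCER1G had adjusted p of 0.208, 0.170 and 0.768 (edgeR), TYROBP had 1 count in 1 clone, ITGAM had 0 counts in A, and LYZ had 0 in all clones. The part of such cells in the CSF1R values was not tested. CSF2RA was the only other gene of the colony-stimulating factor axis that was tested, and it was not called (log2 fold change 0.29, edgeR, adjusted p = 0.375). CSF2RB, below the filter, had 0 to 11 counts in N and 1 to 148 in A. It was called higher in A in the unfiltered fit (log2 fold change 4.42, edgeR, adjusted p = 0.00276).

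**Figure D4:**
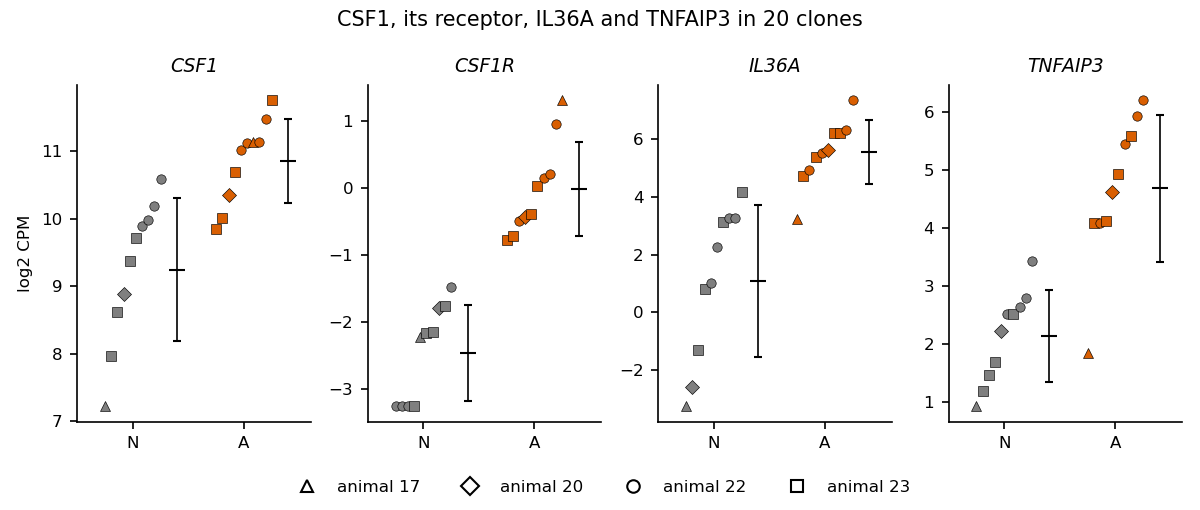
Log2 CPM (y axis, prior count 2) of CSF1, its receptor CSF1R, IL36A and TNFAIP3 in the 20 clones, N in grey and A in orange, with symbols by animal and the mean and SD at the right of each group. The groups do not overlap for CSF1R, and 7, 9 and 9 A clones lie above all N clones for CSF1, IL36A and TNFAIP3.

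The interleukin-1 receptor chains of the set were expressed in every clone and did not pass the test. IL1R1, the receptor that binds interleukin-1, ranged from 28.5 to 136 CPM in N (median 87.4) and from 36.2 to 103 CPM in A (median 59.4). Over all animals the log2 fold change was -0.17 with a standard error of 0.29 (edgeR, adjusted p = 0.692). The animals differed in sign: the N clones of animal 22 had 28.5 to 53.6 CPM and its A clones 44.1 to 103 CPM, whereas the N clones of animal 23 had 80.8 to 113 CPM and its A clones 36.2 to 101 CPM. The log2 fold change in animal 23 was below that in animal 22 by the interaction value of -1.48, with a standard error of 0.44 (unadjusted p = 0.00478 in edgeR, adjusted p = 0.333). Without animal 22 IL1R1 was called lower in A (-0.85, edgeR, adjusted p = 0.0450).

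IL1RAP is the accessory chain shared by the receptors for interleukin-1, interleukin-33 and interleukin-36. It ranged from 12.4 to 31.7 CPM in N (median 15.3) and from 7.79 to 18.0 CPM in A (median 15.5), so the ranges overlapped and 4 N clones lay above all A clones. It was lower in A within 4 of 4 animals, and how many of all genes were so is not given here. Its log2 fold change of -0.34 with a standard error of 0.16 had an unadjusted p of 0.0496 and did not pass the adjustment (edgeR, adjusted p = 0.138).

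IL33, an alarmin released from damaged cells, was close to the limit of detection and was not tested. It had 0 to 44 counts in N clones and 0 to 62 in A clones, with a read in 6 of 10 N and 9 of 10 A clones. The mean was 0.223 ± 0.370 CPM in N and 0.909 ± 1.06 CPM in A (SD, n = 10 each). Without the filter the log2 fold change was 2.05 with a standard error of 0.9996 (edgeR, adjusted p = 0.193), so no difference was called. IL1RL1 (ST2), the receptor of interleukin-33, had 307 ± 283 CPM in N and 343 ± 268 CPM in A (log2 fold change 0.33, edgeR, adjusted p = 0.672).

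Among the other ligands of the family, IL36A rose in A. IL36A, an epithelial cytokine that acts through IL1RL2 and IL1RAP, had 0 to 18.0 CPM in N (median 3.34) and 9.33 to 164 CPM in A (median 47.4). Only the A clone 17-57 fell within the N range. Its log2 fold change was 3.75 with a standard error of 0.70 (edgeR, adjusted p = 0.00253), and it was called without any single clone, but not without animal 23 (4.48, edgeR, adjusted p = 0.0594). IL36A was the only gene called of 3 tested among 11 other ligand and antagonist genes, beside 20.6% called over all genes tested. IL1RN, the interleukin-1 receptor antagonist, and IL18 were not called, at log2 fold changes of 2.05 (edgeR, adjusted p = 0.0681) and 0.01. The agonists IL1A and IL1B were below the filter, with at most 33 and 15 counts, and were not called in the unfiltered fit. That fit called IL36B (log2 fold change 3.52, edgeR, adjusted p = 0.000951) and IL36RN (2.97, edgeR, adjusted p = 0.00963) higher in A. Their counts were small, at most 88 for IL36B and 9 for IL36RN.

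Of the 8 other receptor genes of the family, 4 were tested and 1 was called, beside 20.6% of all genes tested. IL18RAP, the accessory chain for interleukin-18, had 6.54 ± 6.10 CPM in N and 14.0 ± 6.42 CPM in A (SD, n = 10 each, log2 fold change 1.43, edgeR, adjusted p = 0.0408). That call was lost in 12 of the 20 refits on 19 clones, and the log2 fold change in animal 22 alone was -0.04. IL1RL2 and IL18R1 were not called, at log2 fold changes of 0.35 and 0.47. These receptor genes lie next to IL1R1 in the RefSeq order.

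Of 13 genes downstream of the receptors, all were tested, 1 rose, 1 fell and 11 were not called. Across all genes tested 10.3% were called higher in A and 10.3% lower, so these 13 genes were not called more often than others. TOLLIP, an adaptor that restrains the signal, rose from 111 ± 23.6 to 146 ± 18.5 CPM (log2 fold change 0.41, edgeR, adjusted p = 0.00815). IRAK4, the kinase that starts it, fell from 53.0 ± 10.0 to 38.5 ± 4.07 CPM (log2 fold change -0.44, edgeR, adjusted p = 0.00730). MYD88 was not called (-0.14, edgeR, adjusted p = 0.230). Without animal 23 the calls of TOLLIP (0.45, edgeR, adjusted p = 0.134) and IRAK4 (-0.35, edgeR, adjusted p = 0.199) were lost.

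Of 21 NF-kB genes 19 were tested, 3 rose, 1 fell and 15 were not called, with a median log2 fold change of 0.02. Over all genes tested 20.6% were called, so the count called in this list was close to that share. TNFAIP3 (A20), a ubiquitin-editing enzyme that shuts the pathway off, had 1.80 to 10.6 CPM in N (median 5.07) and 3.47 to 73.6 CPM in A (median 27.4), and 9 A clones lay above all N clones. Its log2 fold change was 2.68 with a standard error of 0.31 (edgeR, adjusted p = 0.000169), and it stayed called under every alternative tried. TNIP1, a partner of A20, rose by a log2 fold change of 0.85 (edgeR, adjusted p = 0.0106) and CYLD, a deubiquitinase of the pathway, by 0.37 (edgeR, adjusted p = 0.0257), a call that was lost without 20-15 or 20-106 (0.33 each, edgeR, adjusted p = 0.0525 and 0.0527) and without 22-5 and 22-9 together (0.36, edgeR, adjusted p = 0.0614). BCL3, an atypical member of the inhibitor family, fell by 0.96 on the log2 scale (edgeR, adjusted p = 0.00968). Without animal 23, TNIP1 (0.83, edgeR, adjusted p = 0.154), CYLD (0.25, edgeR, adjusted p = 0.351) and BCL3 (-1.13, edgeR, adjusted p = 0.115) were not called. The subunit genes NFKB1, NFKB2, RELA and RELB did not pass the test, and REL was not tested.

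Of 18 other inflammatory mediators 14 were tested, 5 rose and 0 fell, with a median log2 fold change of 1.06. Over all genes tested 10.3% were called higher in A. The list was chosen with earlier results of these data known. Fewer of its genes were called without the filter on low counts, with a stricter filter and with limma-voom. IL6 had 0 to 2.52 CPM in N and 0.293 to 34.1 CPM in A, with 8 N clones below all A clones (log2 fold change 3.78, standard error 0.57, edgeR, adjusted p = 0.000792). IL11, a cytokine of the IL6 family, rose by a log2 fold change of 2.42 (edgeR, adjusted p = 0.0163), PTX3, a pattern-recognition protein, by 2.49 (edgeR, adjusted p = 0.0312), and IL15, a lymphocyte growth factor, by 2.25 (edgeR, adjusted p = 0.0406). PTGS2 (COX-2), the inducible enzyme of prostaglandin synthesis, named here after its value was seen, rose by 2.00 (edgeR, adjusted p = 0.0484). The calls of IL15, PTX3 and PTGS2 were lost in 14, 8 and 12 of the 20 refits on 19 clones, with adjusted p of at most 0.0743, 0.0769 and 0.197, the last without 23-14, where the log2 fold change of PTGS2 was 1.15. That of IL11 was lost without 23-14 (1.66, edgeR, adjusted p = 0.0526). IL6 was called in all of these fits, but not without animal 23 (3.41, edgeR, adjusted p = 0.0612).

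Over the 8 pathway lists together, 62 of 133 genes other than the 9 were tested, 11 rose, 3 fell and 48 were not called, which is 22.6% called beside 20.6% of all genes. Their median log2 fold change was 0.20. Without animal 23, when 32 genes were called over the whole table, TNFAIP3 alone of the 14 called pathway genes was still called. As 16 of the 133 genes had 0 counts in all clones and the others below the filter were not tested, these counts cover the expressed genes.

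**Figure D5:**
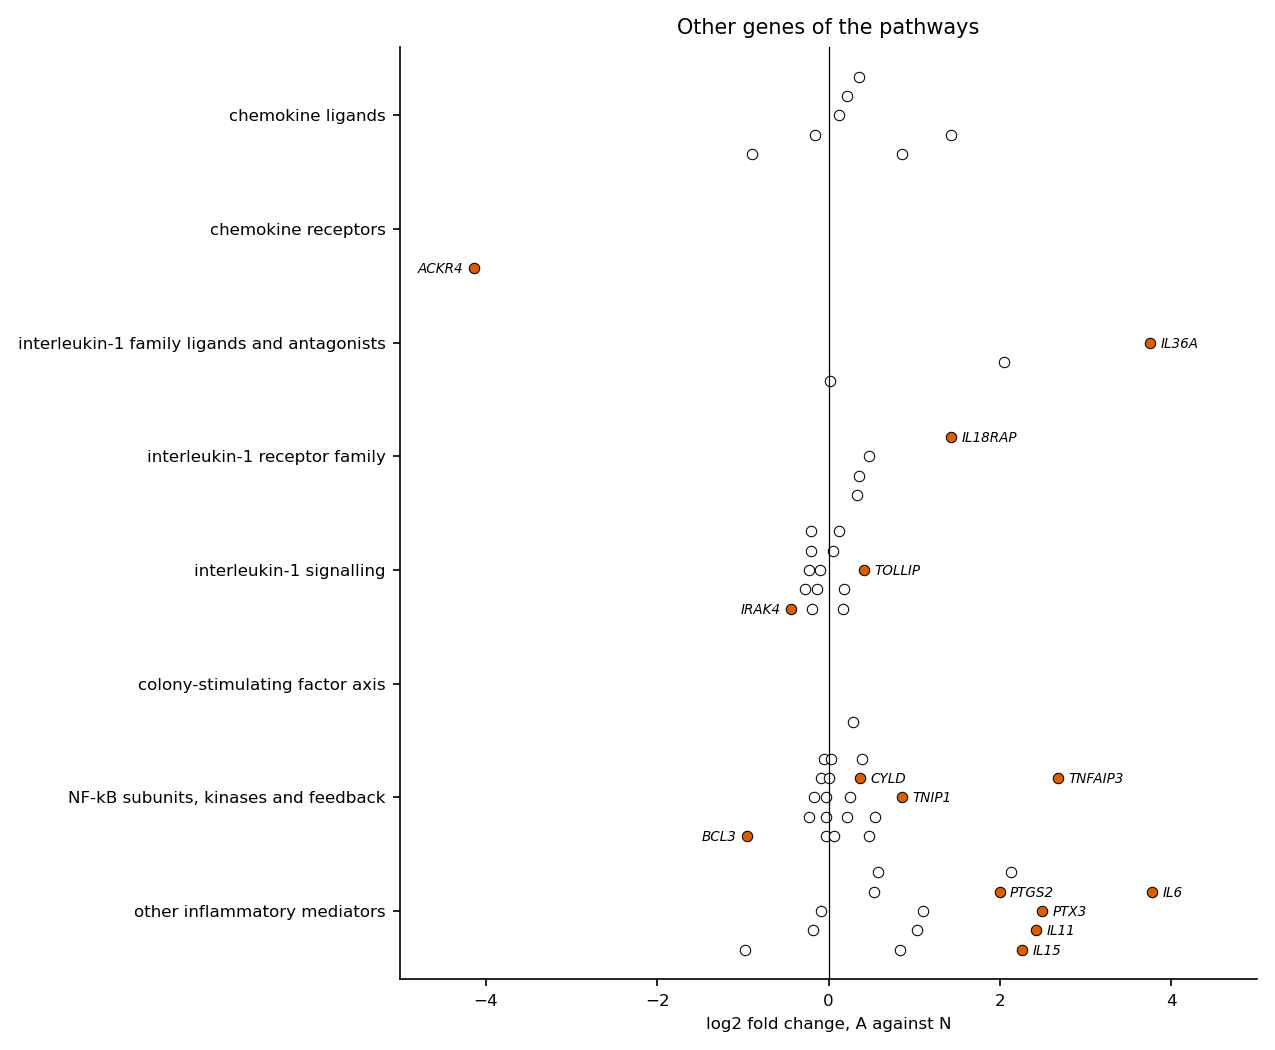
Log2 fold change of A against N (x axis) for the 62 tested genes of 8 pathway lists other than the 9 genes, 1 point per gene, with lists on the y axis. Filled and named points had an adjusted p under 0.05, 11 above 0 and 3 below, and the spread of points within a list is only to separate them.

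In edgeR, no gene of the set had a condition effect that passed the adjustment for a difference between animals 22 and 23. Among the 16 clones of these animals edgeR called 0 of 8 genes for the interaction, beside 0.031% of all 12915 genes tested there. An unadjusted p under 0.05 was found for 2 of the 8 (CXCL8 and IL1R1), beside 9.06% of all genes. DESeq2 called CXCL8 (4.05, adjusted p = 0.00230). Animals 17 and 20, with 1 clone per condition, could not enter that test.

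Spread between clones set the genes apart from each other. The SD of log2 CPM over the N clones was 4.08 for CCL2, which is the 99.9th percentile of the genes tested, 2.57 for CXCL12 and 1.79 for CXCL8, whereas the median gene had 0.38. Over the A clones it was 1.36 for CCL2, 2.23 for CXCL8 (the 98.6th percentile) and 1.09 for CXCL12, with 0.34 for the median gene. IL1RAP was among the steadier ones, at 0.46 in N and 0.37 in A.

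After the mean of each condition was subtracted, some of the genes varied together over the 20 clones, given here as a description over clones that share animals. Pearson's r of log2 CPM was 0.63 for CXCL12 with ACKR3, 0.61 for CCL2 with ACKR3 and 0.58 for CCL2 with CXCL12, while CCL2 with CXCL8 had 0.30. CSF1 and IL1R1 varied in opposite directions (-0.66). Of all genes tested, the 3 most like CCL2 were GEM, a small GTP-binding protein (0.91), FOXC2, a forkhead transcription factor (0.89), and ZC3H6 (0.88). The closest genes were UNKL (0.83), DBNDD1 (0.82) and TMEM265 (0.82) for CXCL8, and LOC100139325 (0.85), SAT2 (0.84) and PDP1 (0.83) for CXCL12. For ACKR3 they were TWSG1 (0.89), SUMF1 (0.87) and GTDC1 (0.86), and for CSF1 they were ORAI1 (0.81), STK32C (0.80) and GNPTG (0.77). IL34 was most like ATP8B2 (0.83), LOC534742 (0.81) and LOC100847376 (0.81), IL1R1 like VPS9D1 (0.86), SPA17 (0.85) and COL16A1 (0.82), and IL1RAP like EPHA1 (0.82), CDC42EP4 (0.75) and MYL5 (0.75). Within 1 condition the values could differ. FOXC2 with CCL2 had 0.96 within N and 0.57 within A, SUMF1 with ACKR3 0.98 and 0.39, and ORAI1 with CSF1 0.92 and 0.43. Some pairs went the other way, such as TMEM265 with CXCL8 at 0.70 within N and 0.92 within A.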

How the data were processed

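Libraries were made with a directional kit and sequenced as read pairs. Per the labels and the study's methods, the authors trimmed reads with Trimmomatic 0.36, aligned them with STAR 2.5.2b to ARS-UCD1.2 and deposited raw counts of unique exonic reads per gene from Subread 1.5.2. The strand setting of counting is not given in the sources used here. A row without a gene name was left out (0.113 to 0.333% of counts per clone). Counts were tested with edgeR 4.0.16 in R 4.3.3 (TMM, filterByExpr, robust quasi-likelihood F test, animal as block), which was tested on simulated data. The simulated clones had no animal effect and the same spread setting for all genes. That run therefore cannot check the block or the behaviour of genes as variable as CCL2. CPM are on TMM-scaled library sizes, and log2 CPM has a prior count of 2. The authors' design paired clones by animal. Same-animal clones deviated together (correlations 0.184, 0.128, 0.239 and 0.422 for animals 17, 20, 22 and 23). Genes named from the lists were up to 4 called per direction by adjusted p, beside the 3 genes most like each member and cell-type markers. The genes and lists were chosen with earlier results of these data known. Alternatives were DESeq2 1.42.0, limma 3.58.1 (voom), other scalings, other filters, no block, and fits without each clone or animal.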

Additional observations from a re-analysis of the deposited data

Results flagged for a closer look

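In groups of 10 clones, a clone was marked where its gap to the nearest other clone, on the log2 CPM scale, as a share of the group's whole range, exceeded Dixon's critical value. This was examined for 23 genes in both conditions, 46 groups in all, and marked 5, all among A clones. Chance marks about 1 group in 20. CXCL8 in 20-106 was at 656 CPM with the next A clone at 31.4 CPM, a gap of 0.594 of the range. IL6 was marked in the same clone, at 34.1 CPM with the next at 2.72 CPM, a gap of 0.560 of the range. CXCL12 was lowest in 23-108, at 19.4 CPM with the next at 68.9 CPM (0.486 of the range). TNFAIP3 was lowest in 17-57, at 3.47 CPM with the next at 16.8 CPM (0.513 of the range). IRAK4 was lowest in 23-14, at 29.9 CPM with the next at 35.4 CPM (0.471 of the range). The cause of these values was not tested.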

How the results depend on the processing

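CSF1 kept its direction under every alternative run, and CCL2 did under every one that tested it. Over all genes 2658 were called, and 1471 without animal 22, 32 without animal 23, 153 in animal 22 alone and 800 in animal 23 alone, where fewer clones were tested. Of the 8 genes, 2 were called as reported, 1 with at least 10 counts in every clone (CCL2 was then not tested), 1 without the animal block, 1 in animal 23 alone, 0 without animal 23 and 0 in animal 22 alone. Leaving out single clones gave 1 to 2. DESeq2 with the block called 1, as its outlier filter gave CCL2 no p. Without that filter, an alternative added after seeing the data, as was the fit without 22-5 and 22-9, CCL2 had a log2 fold change of 3.55 (DESeq2, adjusted p = 0.00169). The fit without the block changed no other call of the 8 genes, but ended those of IL18RAP, BCL3 and PTX3. For the interaction, 0 genes were called, and 1 (CXCL8) by DESeq2. Signs turned for CXCL8 without animal 23 (-0.43) and in animal 22 alone (-1.07), for CXCL12 with limma-voom (0.23) and in animal 23 alone (0.35), for ACKR3 without animal 22 (0.0171) and in animal 23 alone (0.0062), for IL34 without animal 22 (-0.13), for IL1R1 without animal 23 (0.16) and in animal 22 alone (0.85), and for IL18RAP in animal 22 alone (-0.0383). Over single clones left out, IL34 ran from -0.0913 to 0.41, the interaction of CCL2 from -4.52 (without 22-18) to 3.54, and that of IL1RAP from -0.0220 to 0.43. The cause of these turns was not tested. Without the filter on low counts, called genes went from 0 to 8 for chemokine ligands, 1 to 3 for interleukin-1 ligands, 0 to 2 for the colony-stimulating factor axis, 1 to 0 for interleukin-1 receptors and 5 to 2 for other mediators. With limma-voom the mediators called were 2, and 1 under the strict filter of 10 counts per clone. Depth limits IL33, CSF1R and most chemokine and receptor genes, which had few counts.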
